A study of Mus musculus with 2 samples.

Results

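The genes described here are the heat shock proteins and DnaJ cochaperones of mouse hematopoietic stem cells (HSCs), taken by symbol as every gene named *Hsp* with a family letter, *Hsp90*, *Hsph1*, *Hspd1*, *Hspe1*, *Hsf1*, *Hsf2* or *Dnaj*. There were 76 of them among the 24421 gene symbols in the files. They were placed by symbol in 10 groups, from the HSF transcription factors to the J-domain proteins of classes A, B and C.

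The series held RNA-seq counts from HSCs with and without tamoxifen-induced deletion of *Ezh2*, which encodes the main H3K27 methyltransferase of Polycomb repressive complex 2. The WT library came from Cre-ERT;Ezh2+/+ CD45.2 marrow and the library labelled Ezh2 KO from Cre-ERT;Ezh2fl/fl CD45.2 marrow, each transplanted into lethally irradiated CD45.1 recipients on a C57BL/6 background. Both donors carried CreERT+/-, and the label of the deleted allele reads Ezh2 Δ/Δ. Tamoxifen (100 μl of a 10 mg/ml solution) was injected daily for 5 days to induce Cre, and CD150+CD48-CD34-Flt3- LSK cells were sorted 1 month later. The age of the mice, the number of animals behind each library, pooling and the promoter that drives Cre-ERT were not given in the sources used here. The surface markers in the sample labels do not name CD45.2, although the methods list an antibody to it for the study as a whole. The library from floxed marrow is called the KO-labelled library below. With 1 library a group, differences could not be checked against replicates, and a test of the reads compares these 2 libraries and not the genotypes.

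Heat shock proteins keep other proteins folded. Hsp70 binds exposed stretches of unfolded chains and releases them in an ATP cycle that J-domain proteins (the Dnaj genes) start and that Hsp110 exchange factors reset, while Hsp90 takes over nearly folded clients such as kinases and steroid receptors. HSF1 binds heat shock elements, inverted repeats of the unit nGAAn, and switches many of these genes on when unfolded proteins accumulate. HSCs are known for a low rate of protein synthesis and for their dependence on protein quality control.

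Gene counts summed to 5763118 in WT and 4157280 in the KO-labelled library. Levels are given in CPM, counts scaled to a common total, and the floor of 3 counts stood at 0.521 and 0.722 CPM. *Ezh2* itself had 166 counts in WT and 129 in the KO-labelled library, 142.5 and 150.3 after scaling by size factors, and a log2 ratio of 0.08 (95% interval -0.27 to 0.42). The gene-level *Ezh2* count therefore did not separate the libraries. Because the files count whole genes, an RNA that lacks only some exons would still be counted, and the deleted exons could not be read. The list of 17 HSC-related genes, which includes *Cd34*, *Flt3* and *Cd48* although the sort selected against their products, was detected in both libraries (5279 CPM in all in WT and 5575 CPM in the other, median log2 ratio 0.02, none at 0). Of its genes *Slamf1* (-0.62) and *Fgd5* (-0.59) were called lower at the 1.5-fold rule described below, and *Flt3* (0.95) higher. Markers of other cells were not level. The summed CPM of 10 granulocyte genes was 2098 in WT and 3918 in the KO-labelled library. Of the 10, 7 were above 0 and 3 below, the latter *Elane* (860 and 374 counts, -0.76), *Prtn3* (-0.07) and *Ctsg* (-0.01). The sum of 11 erythroid genes was 1775 and 2269, with the globins *Hba-a1*, *Hba-a2*, *Hbb-bs* and *Hbb-bt* listed at 0 in both. That of 8 B lymphoid genes was 48.41 and 95.74, with 4 of them at 0 in WT, and that of 5 eosinophil genes was 0.347 and 770.5, with *Prg2*, *Epx*, *Prg3* and *Ear1* at 0 in WT. In a bulk library a change in cell composition and a change in RNA per cell cannot be told apart. Ratios put the KO-labelled library over WT, as log2 of the normalised count plus 1, and each interval is an exact 95% interval that covers counting error only, since PCR copies of a molecule were not marked by identifiers.

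HSF1 acts through the heat shock element, so promoters that hold it are shown first. In the RefSeq promoter table (assembly GRCm38.p6, 250 bases before to 50 bases after each start) 61 of the 76 genes had an entry, with 78 promoters in all. Genes without an entry, among them *Hspa8*, *Hsp90aa1*, *Hsp90ab1* and *Hsf1*, were not searched. The letters GAANNTTC or TTCNNGAA, which are 2 inverted units, were searched on both strands, and 3 alternating units were counted separately. At least 1 such match was present in 18 of the 78 promoters (23.1%), from 16 genes, beside 15.1% of all 32851 promoters. Promoters with 3 alternating units were 6 of 78 (7.69%), from *Hspd1*, *Hspe1*, *Hsph1* and *Dnajb6*, beside 0.603% of all promoters. These 6 are overlapping entries of 3 stretches, 1 shared by *Hspd1* and *Hspe1* and 1 each with overlapping starts of *Hsph1* and *Dnajb6*, so the share counts each stretch more than once. Both are descriptions of letters, not of HSF1 binding. These 3 regions are printed because they hold such a match and belong to genes with many and with few counts. *Hspd1* and *Hspe1*, which encode the mitochondrial chaperonin and its lid, were well counted, while *Hspa1a* and *Hspa1b*, the stress-inducible Hsp70 genes, had few counts. The interval printed for the chaperonin pair lies between the *Hspe1* start and the *Hspd1* start chosen because its promoter held 3 units. Another *Hspd1* promoter entry (chr1:55088194-55088493) held 0 matches. Capitals mark exact matches to GAANNTTC or TTCNNGAA, alone or in 3 alternating units, 5′ to 3′. Imperfect units were not searched for, so lower-case letters may still hold units of a heat shock element.
Hspd1/Hspe1 interval, chr1:55087933-55088147, plus strand: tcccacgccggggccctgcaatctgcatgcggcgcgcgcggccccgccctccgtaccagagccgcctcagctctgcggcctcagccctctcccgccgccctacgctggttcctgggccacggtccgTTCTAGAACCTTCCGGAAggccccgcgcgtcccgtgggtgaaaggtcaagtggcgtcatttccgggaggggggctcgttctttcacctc
Hspa1a, chr17:34972157-34972406, minus strand: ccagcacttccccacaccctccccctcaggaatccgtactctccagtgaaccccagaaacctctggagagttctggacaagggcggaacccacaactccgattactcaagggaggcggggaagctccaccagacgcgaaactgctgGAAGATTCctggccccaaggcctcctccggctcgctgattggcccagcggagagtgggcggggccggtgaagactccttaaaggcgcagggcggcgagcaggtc
Hspa1b, chr17:34959239-34959488, minus strand: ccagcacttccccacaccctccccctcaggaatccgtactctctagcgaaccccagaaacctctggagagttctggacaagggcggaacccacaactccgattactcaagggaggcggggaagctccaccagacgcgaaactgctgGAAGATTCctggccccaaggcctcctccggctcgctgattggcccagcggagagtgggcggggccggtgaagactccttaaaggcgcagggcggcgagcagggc
The shared *Hspd1*/*Hspe1* interval held 3 matches that overlap in 1 run and 2 sets of 3 units. The 250 bases upstream of *Hspa1a* and *Hspa1b* differed at 3 positions and held 1 match each.

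Levels per length put the Hsp90 and Hsc70 genes first (CPM per kb of annotated exon, a scale on which genes can be compared). Reads with more than 1 alignment were not counted, and the genes differ in how much sequence they share with others (given below), so the order holds for uniquely aligned reads. *Hsp90ab1*, the constitutive cytosolic Hsp90, stood at 543 in WT and 522 in the KO-labelled library. *Hspa8*, the constitutive cytosolic Hsp70 (Hsc70), followed at 397 and 276, and *Hsp90aa1*, the inducible cytosolic Hsp90, at 204 and 212. The order of *Hspa8* and *Hsp90aa1* was the same in both libraries. The next were *Hspa5* (BiP, the Hsp70 of the endoplasmic reticulum) at 136 and 102, *Hspd1* (Hsp60) at 122 and 118 and *Hspa9* (mortalin, the mitochondrial Hsp70) at 106 and 103. The order of these neighbours differed between the libraries, with *Hspa5* highest in WT and lowest in the other. *Dnajb1* and *Dnaja2*, cytosolic J-domain partners of Hsp70, stood at 79.1 and 54.7 and at 74.1 and 64.1. Together the 76 genes took 54493 counts, 0.9455% of the gene total (exact 95% interval 0.9377 to 0.9535), in WT and 35307 counts, 0.8493% (0.8405 to 0.8581), in the KO-labelled library. More than 3 counts were recorded for 65 and 60 of them.

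**Figure D1:**
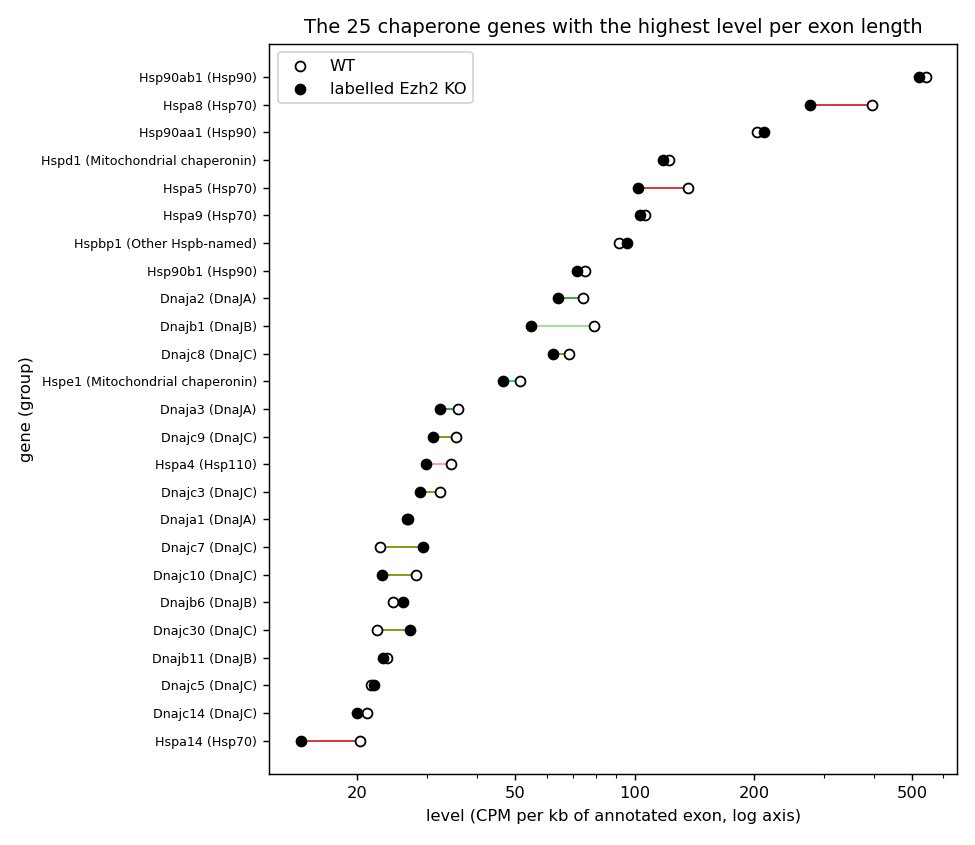
Level of the 25 chaperone genes with the highest mean, in CPM per kb of annotated exon (log axis), with open circles for WT, filled circles for the KO-labelled library and a line joining the 2 values of a gene. *Hsp90ab1*, *Hspa8* and *Hsp90aa1* lead in both libraries, and the lines of *Hspa8*, *Hspa5*, *Dnajb1* and *Hspa14* run to lower values in the KO-labelled library.

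Between the libraries most chaperone genes moved little. A mean of at least 1 CPM, the minimum for a test, was reached by 61 of the 76 genes. A gene was called when its ratio was at least 1.5-fold and its 2 counts passed an exact conditional binomial test (Benjamini-Hochberg adjusted value below 0.01 over all 12588 genes tested). *Hspb6* was the only one called higher (1.64% of 61, beside 4.97% of all genes) and *Dnajc11* the only one called lower (1.64%, beside 5.05%). At 2-fold, 1 was higher and 0 were lower, beside 2.8% and 2.3% of all genes. At most 1 gene was called in each direction, too few to set the chaperone genes apart from all genes. At a mean normalised count of at least 100, 0 of 44 were called higher at 1.5-fold and 1 lower. Of all 8083 genes of that level, 253 were called higher and 327 lower. The median log2 ratio of the 61 genes was -0.08, beside -0.00 over all genes. Of the 61, 36 (59%) were below 0, beside 50.4% of all genes. Restricted to a mean normalised count of at least 100, 30 of 44 (68.2%) were below 0 with a median of -0.13, beside 52.1% and -0.01 over the 8083 genes of that level.

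**Figure D2:**
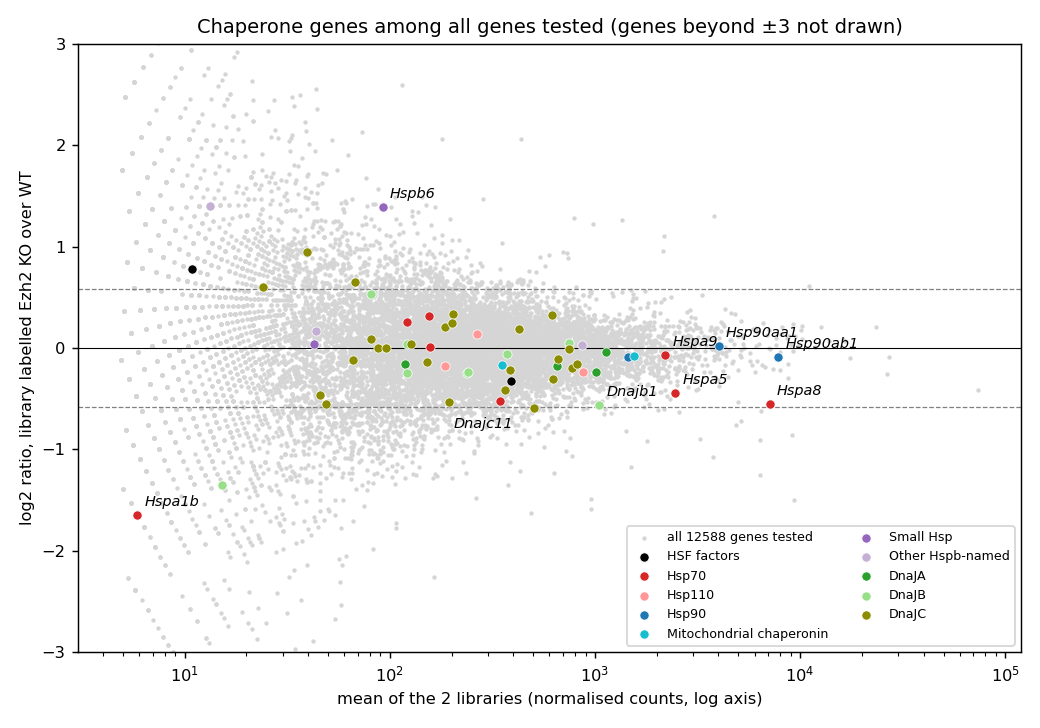
Log2 ratio of the KO-labelled library over WT against the mean normalised count (log axis) for all 12588 genes tested (grey) and the 61 chaperone genes (coloured by group), with dashed lines at 1.5-fold. *Hspb6* lies above the upper line, *Dnajc11* lies on the lower line, and *Hspa8*, *Hspa5* and *Dnajb1* lie at the lower edge of the genes of like abundance.

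Among the abundant genes more ratios passed the counting test as lower than as higher. With no minimum fold, a rule added after the values were seen, 12 of the 61 genes passed the counting test as lower (19.7%, beside 11.3% of all genes) and 2 as higher (3.28%, beside 9.68%). Deeper genes pass such a test more easily. Among genes of at least 100 normalised counts the shares were 12 of 44 lower (27.3%, beside 13.8%) and 1 of 44 higher (2.27%, beside 10.5%). That minimum does not match the depth of the chaperone genes to that of all genes. *Hsp90ab1*, with 9381 and 6508 counts, passed at a ratio of only -0.09. The 12 were *Hspa8*, *Hspa5*, *Hspa14*, *Hspa4*, *Hsp90ab1*, *Hsf1*, *Dnaja2*, *Dnajb1*, *Dnajc1*, *Dnajc10*, *Dnajc11* and *Dnajc27*, and the 2 were *Hspb6* and *Dnajc7*. With an assumed spread between libraries (a coefficient of variation of 0.2) no chaperone gene was called in either direction at 1.5-fold. The share of all genes called under that setting is not given here, so this count cannot be set against a background.

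**Figure D3:**
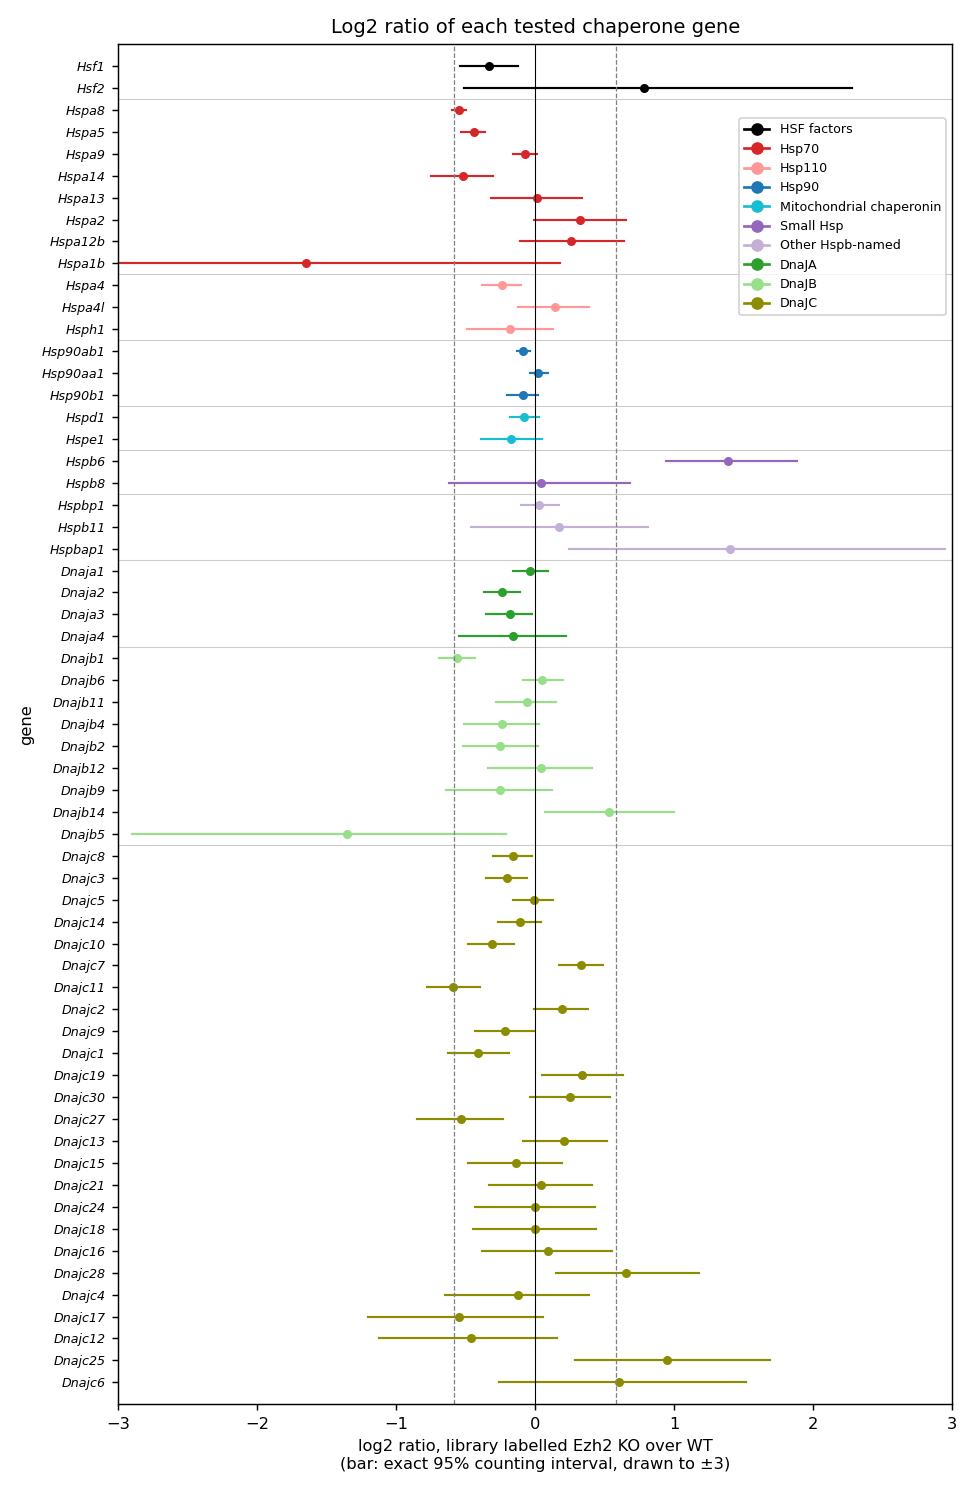
Log2 ratio of the KO-labelled library over WT for each of the 61 chaperone genes tested, ordered by group and then by abundance, with bars for the exact 95% counting interval and dashed lines at 1.5-fold. The bars of *Hspa8*, *Hspa5*, *Hspa14*, *Dnajb1* and *Dnajc11* lie wholly below 0, the bar of *Hspb6* wholly above 0, and the bars of all 3 Hsp90 genes within 0.20 of 0.

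*Hsf1*, which encodes the factor that drives the heat shock response, had 504 counts in WT and 296 in the KO-labelled library (432.5 and 344.9 normalised). Its log2 ratio was -0.33 (-0.54 to -0.12), short of 1.5-fold, and 13.9% of the 4580 genes within 2-fold of its level had a ratio as low. *Hsf2*, a second factor of the family, was close to the floor at 9 and 12 counts, and its interval (-0.51 to 2.28) spanned 0.

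Of the 11 Hsp70 genes, 8 were tested, 5 below 0 and 3 above, with a median of -0.26. That median rested on *Hspa1b*, which was near the floor, and was -0.07 over 7 genes without *Hspa1a* and *Hspa1b*. The 11 genes summed to 16734 counts in WT and 9213 in the KO-labelled library. The sum over the 8 tested genes had a log2 ratio of -0.42 (-0.46 to -0.38), and *Hspa8* and *Hspa5* dominated it. *Hspa8* had 9834 and 4935 counts, 8439.0 and 5750.8 after normalisation, and a log2 ratio of -0.55 (-0.60 to -0.50), which is 1.47-fold lower and just short of 1.5-fold. Of the 116 genes within 2-fold of its level, 6.9% had a ratio as low. *Hspa5* had 3306 and 1791 counts and a ratio of -0.44 (-0.53 to -0.36), with 3.53% of 624 genes of like level as low. *Hspa14*, which encodes the Hsp70-like subunit of the ribosome-associated complex, had 475 and 243 counts and a ratio of -0.52 (-0.75 to -0.30). The mitochondrial *Hspa9* had 2631 and 1843 counts and a ratio of -0.07 (-0.16 to 0.01). *Hspa2* (161 and 148 counts, 0.32), *Hspa12b* (129 and 114, 0.26) and *Hspa13* (182 and 135, 0.01) had intervals that reached 0.

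The stress-inducible Hsp70 genes were near the floor in both libraries. *Hspa1b* had 11 counts in WT and 2 in the KO-labelled library, a log2 ratio of -1.65 with an interval from -5.23 to 0.18. *Hspa1a* had 1 count in each library and *Hspa1l*, a testis-enriched neighbour, 4 and 0. Against *Hspa8*, *Hspa1b* made up 0.112% (0.0558 to 0.2) of the counts of both genes in WT and 0.0405% (0.00491 to 0.146) in the KO-labelled library. These low counts cannot be read as low RNA without their sequence, because reads that align to more than 1 place were kept out of gene counts. *Hspa1a* (chr17:34969190-34972156) and *Hspa1b* (chr17:34956436-34959238) lie side by side on the minus strand, and 79.67% and 79.54% of the 60-base windows of their coding sequences also occur in the other copy. The first 60 coding bases are an example of such a window, identical in both, so a read from it cannot be given to 1 gene.
Hspa1a and Hspa1b, coding bases 1 to 60: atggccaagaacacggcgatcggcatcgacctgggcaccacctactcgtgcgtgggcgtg
Over whole transcripts the shared windows were 64.48% for *Hspa1a*, 59.62% for *Hspa1b* and 71.32% for *Hspa1l*. Among the abundant genes the share was 45.48% for *Hsp90aa1*, 37.31% for *Hspd1* and 36.86% for *Hspa8*, with *Gm12346*, *Hspd1-ps3* and *Gm15459* as the main matches, against 0% for *Hspa5*, *Dnajb1*, *Hsf1* and *Hsph1* and 1.483% for *Dnajc11*. Entries for reads with more than 1 alignment were 10.75% of all entries in WT and 12.27% in the KO-labelled library, and the part of that difference in the *Hspa8* ratio was not tested. The ratios of *Hspa5* and *Dnajb1* came from genes with no shared window.

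**Figure D4:**
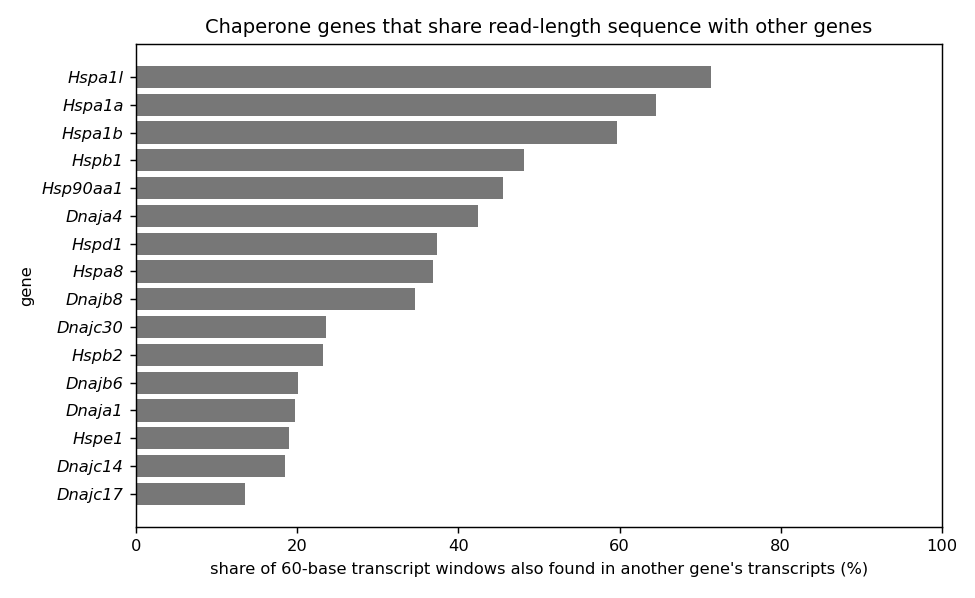
Share of each gene's 60-base transcript windows that also occur in transcripts of another gene (%), for the 16 chaperone genes with the most. *Hspa1l*, *Hspa1a* and *Hspa1b* lead, and *Hsp90aa1*, *Hspd1* and *Hspa8* are the abundant genes with large shares.

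The Hsp110 genes, nucleotide exchange factors of Hsp70, were close to level. *Hspa4* (Apg-2) had 1097 and 685 counts and a log2 ratio of -0.24 (-0.38 to -0.10). *Hspa4l* (294 and 238 counts) had 0.14 and *Hsph1*, the inducible Hsp105 (229 and 149 counts), had -0.18, with intervals that included 0.

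The Hsp90 genes were level within 0.09 log2 units. *Hsp90ab1* had 9381 and 6508 counts and a ratio of -0.09 (-0.13 to -0.04). *Hsp90aa1* had 4627 and 3462 counts and 0.02 (-0.04 to 0.09). *Hsp90b1* (Grp94), which folds receptors and integrins in the endoplasmic reticulum, had 1738 and 1201 counts and -0.09 (-0.20 to 0.02). *Hsp90aa1* made up 33% (32.3 to 33.8) of the counts of the cytosolic genes in WT and 34.7% (33.8 to 35.7) in the KO-labelled library. The Hsp90 sum had a log2 ratio of -0.05 (-0.09 to -0.02), an interval of counting error only. The lower Hsp70 sum was dominated by *Hspa8* and *Hspa5*, so these sums do not compare the families as wholes.

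The mitochondrial chaperonin pair had ratios on the same side of 0. *Hspd1* had 1859 and 1297 counts and -0.08 (-0.18 to 0.03), and *Hspe1* (Hsp10) had 436 and 285 counts and -0.17 (-0.39 to 0.05). *Hspd1* made up 81% (79.3 to 82.6) and 82% (80 to 83.8) of the counts of both. The balance of these genes, with all *Hspd1* starts counted together, did not differ beyond counting error.

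Small heat shock proteins, which hold unfolded chains without ATP, had low counts of uniquely aligned reads in these HSCs, and *Hspb6* alone among them was called higher. *Hspb6* (Hsp20; chr7:30552178-30555443, mm10) had 59 counts in WT and 115 in the KO-labelled library, 50.6 and 134.0 after normalisation. It rose 2.61-fold, a log2 ratio of 1.39 (0.94 to 1.88), and 0.837% of the 3586 genes within 2-fold of its level had a ratio as high. Exons of *Lin37*, *Proser3* and *Gm38670* overlap 8.786% of its exon bases, the first 2 on the opposite strand, and the strand setting of the counts was not given in the sources used here, so reads of those genes cannot be told apart there. The summed granulocyte, erythroid, B lymphoid and eosinophil markers given above were also higher in that library, and their part in the *Hspb6* value was not tested. *Hspb8*, partner of Bag3 in selective autophagy, had 49 and 37 counts and a ratio of 0.04 (-0.62 to 0.68). *Hspb1* (Hsp25) had 7 and 3 counts and *Hspb7* 4 and 0, below the minimum for a test. Of the *Hspb1* windows 48.16% were shared, mainly with *Hsp25-ps1*, so its low counts cannot be read as low RNA. Of the other genes with Hspb names, *Hspbp1*, which encodes an Hsp70 exchange factor, was abundant and level (997 and 752 counts, 0.03, -0.10 to 0.17), *Hspb11*, an intraflagellar transport subunit, had 48 and 40 counts (0.17), and *Hspbap1* had 8 and 17 counts (1.40, 0.24 to 2.95) without passing the test.

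Class A J-domain proteins, the closest relatives of bacterial DnaJ, had 4 of 4 ratios below 0 and a median of -0.17. *Dnaja1* had 1332 and 957 counts (-0.04, -0.16 to 0.09), *Dnaja2* 1271 and 793 (-0.24, -0.37 to -0.11) and *Dnaja3*, the mitochondrial member, 810 and 525 (-0.18, -0.35 to -0.02). None was called at 1.5-fold.

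In class B, 6 of the 9 tested genes were below 0, with a median of -0.24. *Dnajb1* (Hsp40), the canonical heat-inducible partner of Hsp70, had 1461 counts in WT and 728 in the KO-labelled library, 1253.7 and 848.3 after normalisation. Its log2 ratio was -0.56 (-0.69 to -0.43), a 1.48-fold difference just short of 1.5-fold, and 2.03% of 2021 genes of like level were as low. *Dnajb1* made up 52.3% (50.4 to 54.2) of the counts of *Dnajb1* and *Dnaja1* in WT and 43.2% (40.8 to 45.6) in the KO-labelled library. Per kb of exon *Dnajb1* was above *Dnaja1* in both libraries (79.1 against 26.8 CPM per kb in WT and 54.7 against 26.7 in the other). That order rests on annotated exon lengths of 3.2 kb for *Dnajb1* and 8.63 kb for *Dnaja1*. Shared windows made up 0% and 19.69% of their sequence. *Dnajb6*, an inhibitor of polyglutamine aggregation, had 858 and 656 counts (0.05, -0.09 to 0.20), and *Dnajb11*, the ERdj3 partner of BiP, had 443 and 312 (-0.06, -0.28 to 0.15). Outside the named set, *Dnajb5* had 26 and 7 counts and a ratio of -1.35 (-2.90 to -0.21) without passing the test.

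In class C, which shares only the J domain, 14 of 25 tested genes were below 0 (56%, beside 50.4% of all genes), with a median of -0.01. *Dnajc11* (chr4:151933691-151982137, mm10), a mitochondrial protein tied to the cristae-organising MICOS complex, had 702 and 344 counts, 602.4 and 400.9 after normalisation. It fell by 0.59 on the log2 scale (interval -0.78 to -0.40), just inside 1.5-fold, where *Dnajb1*, *Hspa8* and *Hspa14* were just outside, and 2.61% of 4065 genes of like level were as low. The call was lost under TMM or total-count scaling (0 genes called lower in each). *Dnajc8*, a splicing-associated protein, had 1005 and 663 counts (-0.16, -0.30 to -0.02), *Dnajc3*, the p58IPK inhibitor of eIF2α kinases, had 961 and 615 (-0.20, -0.35 to -0.06), and *Dnajc5*, cysteine string protein, had 871 and 635 (-0.01, -0.16 to 0.13). *Dnajc7*, which binds both Hsp70 and Hsp90, stood on the other side with 640 and 592 counts and 0.33 (0.17 to 0.49). Of the less abundant genes outside the named set, *Dnajc25* had 31 and 45 counts (0.95, 0.29 to 1.69) and *Dnajc28* 61 and 71 (0.65, 0.15 to 1.18). Neither was called, although *Dnajc25* was called higher after the deeper library was thinned.

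The genes with at most 3 counts in both libraries were *Dnajb7*, *Dnajb8*, *Dnajb13*, *Dnajc5b*, *Dnajc5g*, *Dnajc22*, *Hspa1a*, *Hspa12a*, *Hspb2*, *Hspb3* and *Hspb9*, 11 in all. Their levels could not be told from 0 below 0.521 CPM in WT and 0.722 CPM in the other library. *Hspb2* and *Hspb3* belong to the muscle small heat shock proteins, and *Dnajb13* and *Hspb9* are known from testis.

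By compartment, in lists set after the values were seen, the 8 cytosolic core genes (*Hspa8*, both cytosolic Hsp90 genes, *Hsph1*, *Hspa4*, *Dnaja1*, *Dnaja2* and *Dnajb1*) had a median of -0.21 with 7 below 0, the 12 endoplasmic reticulum genes -0.10 with 8 below 0 and the 8 mitochondrial genes -0.11 with 6 below 0. Immediate-early genes, which are known to rise within minutes of cell stimulation or handling, stood beside these values. Of 19 in the list 17 were tested, all 17 were below 0 with a median of -0.86, 13 were called lower at 1.5-fold, and their summed level was 14409 CPM in WT and 7645 CPM in the KO-labelled library, with 0 and 1 genes at 0. Their part in the *Hspa8*, *Hspa5* and *Dnajb1* values was not tested.

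Other chaperone machinery gave the pathway around these genes. Of 48 cochaperones, folding enzymes and chaperonin subunits, 45 were tested, 32 were below 0 and 13 above, and the median was -0.14, beside 50.4% below 0 and a median of -0.00 over all genes. At 1.5-fold 1 of the 45 was called higher, beside 4.97% of all genes, and 4 were called lower, beside 5.05%. *Bag3*, the Hsp70 exchange factor of selective autophagy, rose from 166 to 185 raw counts, 142.5 to 215.6 after normalisation (0.59, 0.29 to 0.91). *Hyou1*, the exchange factor of BiP in the endoplasmic reticulum, fell from 279 to 85 counts (-1.26, -1.64 to -0.92), and *Serpinh1*, the collagen chaperone Hsp47, from 68 to 24 (-1.03, -1.80 to -0.37). *Unc45a*, a myosin chaperone that works with Hsp90, fell from 468 to 211 (-0.71, -0.95 to -0.47) and *Bag4*, the silencer of death domains, from 337 to 164 (-0.60, -0.88 to -0.32). The Hsp90 cochaperones *Fkbp4* (2422 and 1189 counts, -0.58) and *Ahsa1* (1099 and 566 counts, -0.52) lay just outside 1.5-fold, and they were named after their values were seen.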

How the data were processed

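RNA was measured in 2 libraries of sorted HSCs, 1 WT and 1 labelled Ezh2 KO, grouped by the genotype that the labels give. The authors deposited raw counts for each gene symbol, with no normalisation. According to the study's methods and processing notes, single-end reads were aligned to mm10 with TopHat2 2.0.13 and Bowtie2 2.1.0 using iGenomes annotation, and StringTie is named. The closing entries for reads given to no gene are named as in htseq-count output, so the counter and its strand setting are not certain. Those 5 entries (56.1% and 56.9% of all entries) were kept out of totals.

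Counts were divided by DESeq2 1.42.0 size factors (1.17 for WT, 0.858 for the other library; R 4.3.3). Genes with a mean of at least 1 CPM were tested with an exact two-sided conditional binomial test (scipy 1.17.1) and Benjamini-Hochberg adjustment below 0.01. No replicate model could be fitted, and the procedure was tested on simulated data. Positions, exon lengths and 60-base windows came from GENCODE M21 on GRCm38, and promoters from RefSeq. Levels per kb use the union of annotated exons, which lowers genes with long annotated isoforms such as *Dnaja1* (8.63 kb). edgeR 4.0.16 served for TMM and for an assumed spread.

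Alternatives were TMM and total-count scaling, no filter, 10 CPM, thinning of the deeper library, fold alone, a coefficient of variation of 0.2, pseudocounts of 0.5 and 5, leaving out *Hspa1a* and *Hspa1b*, and, added after seeing the data, no fold minimum. Genes were named as follows: called members, the 3 most abundant of each group, a set of well-known members, and called machinery genes. Others named were chosen after their values were seen. The members and lists were chosen with earlier results of these data known. Protein sequences were not used here. Some items are not reported here.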

Additional observations from a re-analysis of the deposited data

Results flagged for a closer look

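Of all entries in the library labelled Ezh2 KO, 12.27% (12.25 to 12.29) were reads with more than 1 alignment, beside 10.75% (10.73 to 10.77) in WT. These entries lie outside the gene counts and were higher in the library labelled Ezh2 KO than in the control. How many came from *Hspa1a*, *Hspa1b*, *Hspa8* or *Hsp90aa1*, whose sequence is partly shared with other genes, was not tested.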

How the results depend on the processing

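With 1 library a group and no replicate spread, a call says only that 2 libraries differ beyond counting error, and genes near the floor can show only large differences. At 1.5-fold, the 1 higher and 1 lower call became 2 higher and 12 lower with no fold minimum, 2 and 2 after thinning (with 2 higher at 2-fold), 6 and 3 by fold alone (2 higher and 2 lower at 2-fold), and 0 and 0 with an assumed coefficient of variation of 0.2 (0 higher at 2-fold). Shares of all genes under thinning, fold alone and the assumed spread are not given here, so those counts describe the chaperone genes only. The lower call, *Dnajc11*, was lost under TMM (0), total-count scaling (0) and a pseudocount of 5 (0), and *Hspb6* was called in every setting but the assumed spread. The small Hsp median of 0.71 over 2 genes became -0.30 with no filter (6 genes) and 1.39 at 10 CPM (1 gene). Of 79 recomputed medians the other 77 moved within the limit set, and all 150 recomputed values of named members stayed within their counting intervals. Total-count scaling moved the median of all genes from -0.003 to 0.026, with a sign change for *Dnajc18* and *Dnajc5*, and TMM turned *Dnajc18*. The planned search of protein sequences for the J-domain motif was not run. No paired analysis was possible because the labels give no replicate numbers and there was 1 library a group.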

Other observations

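The cytosolic chaperonin TRiC, which folds actin and tubulin and belongs to the machinery list, had ratios below 0 for 7 of its 8 subunits, with a median log2 ratio of -0.15 and 17621 counts in WT against 11632 in the library labelled Ezh2 KO (log2 ratio of the sums -0.16, -0.19 to -0.12). The subunit above 0 was *Cct2* (1082 and 907 counts, 0.19), and the lowest was *Cct7* (2704 and 1606 counts, -0.31). None was called at 1.5-fold. These genes were singled out after their values were seen.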
